A study of Mus musculus with 8 samples.

Results

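The 10 genes described here are Ccnd1, Ccnd2 and Ccnd3, which encode the D-type cyclins, Cdk4 and Cdk6, which encode their partner kinases, Cdkn1a, Cdkn1b and Cdkn1c, which encode the CDK inhibitors p21, p27 and p57, and Rb1 and Myc. They were chosen by symbol, with earlier results of these data known, and were matched from the Ensembl identifiers in both count tables. All 10 of them, among the 45706 genes listed, were counted and passed the filter on low counts. The RNA came from crypts of the small intestine (SI) and the colon (COL) that had been freshly isolated with EDTA from 4 wild type C57BL/6N mice, without any treatment, transgene or sorting, and the age of the mice was not given in the sources used here. In the paper's crypt protocol, villi were scraped off the proximal small intestine, and the colon was kept longer in more concentrated EDTA. Tissue and isolation procedure thus cannot be told apart here. Each mouse gave 1 SI and 1 COL library. Replicates 1 and 4 (donor mice 1 and 5) were female and replicates 2 and 3 (donor mice 2 and 3) were male, and libraries are named below by tissue and replicate, SI1 to SI4 and COL1 to COL4.

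Crypts are the pockets of the intestinal epithelium in which stem and progenitor cells divide, while their differentiated offspring leave the cell cycle. Growth signals raise the D-type cyclins, which bind CDK4 or CDK6, and the kinase then phosphorylates the retinoblastoma protein RB1, so that E2F factors are released and genes of DNA replication are transcribed. INK4 proteins bind CDK4 and CDK6, and Cip/Kip proteins (p21, p27, p57) act mainly on CDK2 complexes. Myc is a transcription factor that drives growth and division, is a classical target of Wnt signalling in crypts, and has Cdk4 and Ccnd2 among its known targets, while Cdkn1a is the best known target of p53 and rises as intestinal cells differentiate.

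The libraries held 15969428 to 32908060 counts, and 7719 to 33528 of these fell on the 10 genes. Levels are given as CPM, which scales each library's counts to the same total after TMM normalization, and each log2 fold change is that of SI against COL, so that a positive value is higher in SI. In 4 libraries, here called mitochondria-rich (SI2, SI3, COL1, COL2), mitochondrial genes held 22.7% to 50.8% of all counts, and in the other 4, called mitochondria-poor (SI1, SI4, COL3, COL4), they held 4.83% to 7.35%. Among the SI libraries this split is also that of the sexes. The 6 epithelial markers summed to 6445 to 11710 CPM in SI and 3313 to 8019 CPM in COL. Of them, Epcam and Cdh1 were at 391 CPM or more in every library. Vil1 lay higher in SI (2580 to 4311 against 231 to 477 CPM). Krt18 (240 to 255 against 420 to 836 CPM) and Cdx1 (22.6 to 25.7 against 69.5 to 141 CPM) lay higher in COL. The 6 SI enterocyte markers summed to 46437 to 114372 CPM in SI and to 12.9 to 138 CPM in COL, while the summed markers of fibroblasts (6 genes), smooth muscle (5), endothelium (3) and enteric glia (3) reached at most 6.77, 12.4, 5.84 and 3.54 CPM in any library. The 5 immune markers summed to 27.5 to 58.6 CPM in SI and 8.27 to 29.5 CPM in COL.

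The library labelled SI1 stood apart from SI2 to SI4. It held 14.0 CPM of the proliferation marker Mki67, against 68.5 to 178 CPM in the others, 0.634 CPM of the stem cell marker Lgr5 against 5.81 to 11.2 CPM, and 61.3 CPM of the Paneth cell gene Lyz1 against 401 to 700 CPM. Of the 6 enterocyte markers, Apoa1, Apoa4, Alpi and Fabp1 were highest in SI1 (Apoa4 at 11652 CPM against 1270 to 5953 CPM), Anpep lay within the range of the others (24204 against 12114 to 24577 CPM), and Sis was lowest in it (2049 against 2163 to 3374 CPM). The 11 mitosis genes of the list used below were at 2.05% to 32.9% of their mean in SI2 to SI4. Several of the genes described here were also low in SI1, so their values are given with and without it; what part these other differences have in them was not tested. In these bulk samples, fewer cells of a type and less RNA per cell cannot be told apart.

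The first question was which of the genes differed between SI and COL crypts beyond the spread between mice. Cdk6 and Ccnd3 were lower in SI crypts and Rb1 was higher, while the other 7 did not pass the threshold (edgeR's quasi-likelihood test, Benjamini-Hochberg adjusted p below 0.05 over 14491 genes). Cdk6 was 3.85-fold and Ccnd3 2.31-fold higher in COL, and Rb1 2.40-fold higher in SI. This is 3 of 10 genes, close to the 28.4% of all tested genes that passed in either direction. By direction it is 1 of 10 higher in SI, where 15.5% of all genes were, and 2 of 10 higher in COL, where 12.9% of all genes were. For these same 3 genes the SI and COL libraries did not overlap, which was the case for 33.5% of all genes tested. The median log2 fold change was -0.40 over the 10 genes and -0.09 over all genes tested. Of the 10 fold changes, 8 were negative, as were 53.4% of those of all genes tested. With SI1 left out, the same 3 genes passed and the median was -0.28.

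**Figure D1:**
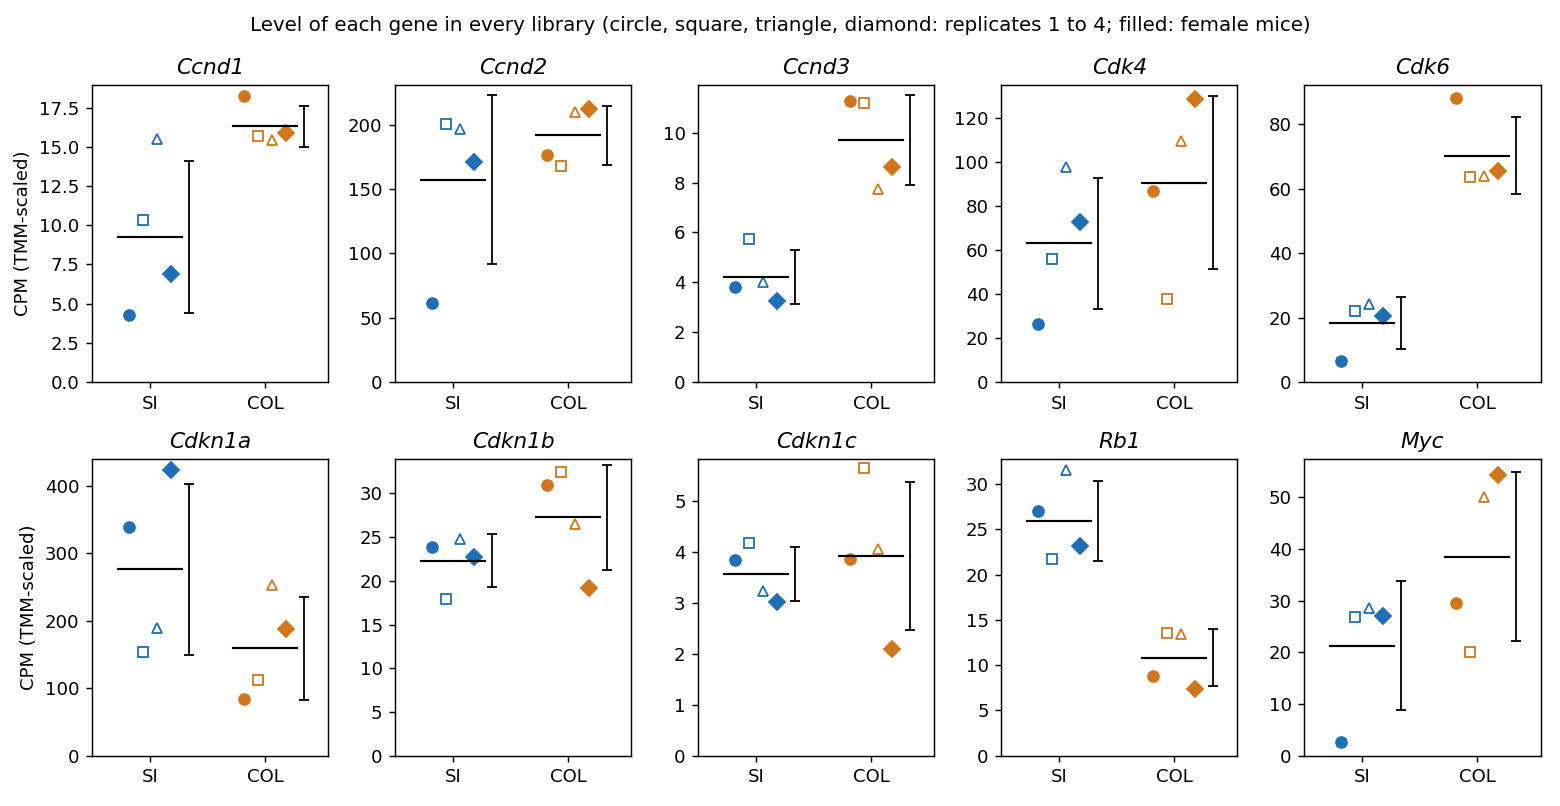
CPM (TMM-scaled, linear axes from 0) of the 10 genes in the 4 SI (blue) and 4 COL (orange) libraries. Symbols stand for replicates 1 to 4, filled symbols for female mice, lines for the mean and bars for the SD (n = 4). Only in the panels of Ccnd3, Cdk6 and Rb1 do the tissues not overlap, and SI1 (filled blue circle) lies lowest of the SI libraries for Ccnd1, Ccnd2, Cdk4, Cdk6 and Myc.

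Among the D-type cyclins, Ccnd2 was the most abundant, and Ccnd3 was the only one to differ by the test. Ccnd3 stood at 3.80, 5.74, 4.00 and 3.25 CPM in SI1 to SI4 and at 11.3, 11.2, 7.73 and 8.61 CPM in COL1 to COL4. All 4 SI libraries lay below all 4 COL libraries, and SI was lower in 4 of 4 mice. SI averaged 4.20 ± 1.08 CPM and COL 9.70 ± 1.80 CPM (SD, n = 4 each), and the log2 fold change was -1.21 ± 0.32 (SE, edgeR adjusted p = 0.0157). The SI values rest on 71 to 95 counts a library. Bysl, a gene on the opposite strand, overlaps 4.11% of the exon bases of Ccnd3. As mean log2 CPM the difference was -1.21 among mitochondria-rich and -1.20 among mitochondria-poor libraries. The adjusted p rose to 0.0546 without SI4 (log2 fold change -1.14) and to 0.0503 without COL1 (-1.12).

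Ccnd1, the D-type cyclin best known as a target of growth factor signalling, stood at 4.26, 10.3, 15.5 and 6.91 CPM in SI1 to SI4 and at 18.2, 15.7, 15.5 and 15.9 CPM in COL1 to COL4. The COL libraries lay close together, whereas the SI libraries spread 3.64-fold from the lowest to the highest, and SI3 (15.51 CPM) alone overlapped COL (COL3 at 15.46 CPM). The log2 fold change of -0.82 ± 0.37 did not pass the threshold (SE, edgeR adjusted p = 0.124), and it was negative in 3 of 4 mice. As mean log2 CPM the difference was -0.41 among mitochondria-rich and -1.52 among mitochondria-poor libraries. Without SI3 it was -1.17 with an edgeR adjusted p of 0.0365, and without SI1 it was -0.56 with 0.251. Exons of LTO1 on the opposite strand overlap 23.4% of the exon bases of Ccnd1, and whether reads were counted by strand is not given in the sources used here.

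Ccnd2, a D-type cyclin and a Myc target, stood at 61.2, 201, 197 and 171 CPM in SI1 to SI4 and at 176, 168, 210 and 212 CPM in COL1 to COL4. SI1 was the lowest library, and SI2 to SI4 lay within the range of COL. The log2 fold change was -0.28 ± 0.37 (SE, edgeR adjusted p = 0.610), and without SI1 it was -0.0005 with an adjusted p of 0.999.

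The kinase genes differed in how their levels divided the tissues. Cdk6 stood at 6.57, 21.9, 24.3 and 20.3 CPM in SI1 to SI4 and at 88.2, 63.8, 63.8 and 65.4 CPM in COL1 to COL4. The highest SI library lay far under the lowest COL library, SI was lower in 4 of 4 mice, and SI1 and COL1, from the same mouse, were the lowest and the highest of all. SI averaged 18.3 ± 7.96 CPM and COL 70.3 ± 11.9 CPM (SD, n = 4 each), with a log2 fold change of -1.94 ± 0.37 (SE, edgeR adjusted p = 0.00255). Cdk6 passed the threshold in all 17 alternative settings. Without SI1 the log2 fold change was -1.65 (edgeR adjusted p = 0.00161), and as mean log2 CPM the difference was -1.70 among mitochondria-rich and -2.47 among mitochondria-poor libraries.

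Cdk4 stood at 26.5, 55.8, 97.5 and 72.6 CPM in SI1 to SI4 and at 86.8, 37.5, 109 and 129 CPM in COL1 to COL4. The ranges overlapped, with SI1 lowest in SI and COL2 lowest in COL. The log2 fold change of -0.52 ± 0.44 did not pass the threshold (SE, edgeR adjusted p = 0.412), and without SI1 it was -0.25. Exons of Tspan31 on the opposite strand overlap 19.7% of the exon bases of Cdk4.

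Ccnd1, Ccnd2, Cdk4, Cdk6 and Myc were each lowest in SI1 among the SI libraries. Among the COL libraries, Myc and Cdk4 were lowest in COL2, and so was Ccnd2, by little (168 CPM against 176 CPM in COL1). Cdk6 hardly differed between COL2, COL3 and COL4 (63.77, 63.82 and 65.4 CPM), and Ccnd1 was lowest in COL3. What part Myc has in the levels of the other genes was not tested. The known binding motif of Myc with its partner Max is the E-box CACGTG, and the RefSeq promoters of both kinase genes (GRCm38.p6, from 250 bases before to 50 bases after a gene's start) are shown to give its place in them, with each E-box in capitals. The Cdk4 window, chr10:127063285-127063584 on the plus strand, holds 4 E-boxes, whose first bases lie at -172, -118, -98 and -11 from the start, and the Cdk6 window, chr5:3343643-3343942 on the plus strand, holds 1 at -220.
Cdk4: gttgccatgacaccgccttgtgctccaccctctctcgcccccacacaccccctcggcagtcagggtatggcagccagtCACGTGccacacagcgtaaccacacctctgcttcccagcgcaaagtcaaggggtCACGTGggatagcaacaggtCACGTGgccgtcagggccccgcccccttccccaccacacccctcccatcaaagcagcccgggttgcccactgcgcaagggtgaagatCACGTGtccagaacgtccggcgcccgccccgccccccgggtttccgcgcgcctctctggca
Cdk6: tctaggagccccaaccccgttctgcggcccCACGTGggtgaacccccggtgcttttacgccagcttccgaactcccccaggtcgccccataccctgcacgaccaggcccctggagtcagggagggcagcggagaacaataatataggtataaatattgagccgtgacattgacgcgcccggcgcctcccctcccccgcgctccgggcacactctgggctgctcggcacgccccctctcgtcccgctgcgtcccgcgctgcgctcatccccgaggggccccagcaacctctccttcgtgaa
The motif reads the same on both strands, and 7.15% of the 32851 RefSeq promoter windows of that length hold at least 1 of it, while 8 windows (0.0244%) hold 4 or more. The TCF motif CTTTGA, searched on both strands, occurs 1 time in the Cdk4 window and not in that of Cdk6, and 16.003% of all windows hold it. Neither E2F motif searched on both strands (TTTCGCGC or TTTGGCGC, found in 0.813% of all windows) occurs in either. A match is a description of the letters and not a measured binding site.

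Cdkn1a was the highest of the CDK inhibitor genes in every library, and none of the 3 Cip/Kip genes passed the threshold. Cdkn1a stood at 340, 154, 190 and 424 CPM in SI1 to SI4 and at 84.3, 112, 253 and 188 CPM in COL1 to COL4. SI1 and SI4 lay above every COL library, whereas SI2 and SI3 lay within the COL range. SI averaged 277 ± 127 CPM and COL 159 ± 76.2 CPM (SD, n = 4 each), and the log2 fold change was 0.80 ± 0.44 (SE, edgeR adjusted p = 0.207).

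Within each tissue, Cdkn1a was higher in the mitochondria-poor libraries, and these also held more Krt20, a keratin of mature surface epithelium and 1 of the 5 colonocyte markers. Krt20 was at 11118 and 10255 CPM in SI1 and SI4 against 4856 and 4778 CPM in SI2 and SI3, and at 1619 and 1121 CPM in COL3 and COL4 against 241 and 733 CPM in COL1 and COL2. The difference of Cdkn1a between SI and COL in mean log2 CPM was 0.81 among mitochondria-rich and 0.80 among mitochondria-poor libraries. The other markers of the list did not all share this split. Slc26a3 and Aqp8 were highest in the mitochondria-rich COL2 (467 and 541 CPM), Car4 was higher there (847 CPM) than in COL4 (639 CPM), and the enterocyte gene Sis was highest in the mitochondria-rich SI3. What part the mitochondrial share or these markers have in the levels of Cdkn1a was not tested.

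Of the RefSeq windows of Cdkn1a, the upstream one, chr17:29090729-29091028 on the plus strand (GRCm38.p6), is shown because it holds 2 matches to the p53 half-site consensus, which are in capitals and start at -73 and -51.
Cdkn1a: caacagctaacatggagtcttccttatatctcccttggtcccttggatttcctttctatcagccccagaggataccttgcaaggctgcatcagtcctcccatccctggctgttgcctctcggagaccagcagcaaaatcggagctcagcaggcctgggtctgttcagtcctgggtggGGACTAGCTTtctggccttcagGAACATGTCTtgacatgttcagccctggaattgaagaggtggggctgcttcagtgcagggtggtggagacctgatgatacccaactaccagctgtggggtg
This consensus was searched on both strands, and 8.36% of all windows hold at least 1 match and 0.359% hold 2 or more. The second window of Cdkn1a, chr17:29093519-29093818, and those of Cdkn1b and Ccnd3 hold no match to any of the motifs searched, which says nothing about the factors themselves.

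Cdkn1b, whose product p27 holds back CDK2 in resting cells, stood at 23.9, 17.9, 24.7 and 22.7 CPM in SI1 to SI4 and at 30.9, 32.4, 26.5 and 19.1 CPM in COL1 to COL4. The ranges overlapped only through COL4, the lowest of the COL libraries. The log2 fold change was -0.29 ± 0.25 (SE, edgeR adjusted p = 0.432). No exon of another annotated gene overlaps Cdkn1b.

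Cdkn1c, an imprinted gene that encodes p57, was low in both tissues, at 3.85, 4.17, 3.24 and 3.02 CPM in SI1 to SI4 and at 3.87, 5.66, 4.07 and 2.09 CPM in COL1 to COL4, which is 64 to 152 counts a library. All 4 SI libraries lay within the COL range, and the log2 fold change of -0.13 ± 0.40 was smaller than its SE (edgeR adjusted p = 0.842). The antisense gene Gm44732 overlaps 30.7% of its exon bases.

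Rb1, the pocket protein that CDK4 and CDK6 inactivate, was the only one of the 10 genes to be higher in SI by the test. It stood at 27.04, 21.8, 31.6 and 23.2 CPM in SI1 to SI4 and at 8.83, 13.5, 13.5 and 7.41 CPM in COL1 to COL4. Every SI library lay above every COL library, and SI was higher in 4 of 4 mice. SI averaged 25.9 ± 4.41 CPM and COL 10.8 ± 3.17 CPM (SD, n = 4 each), and the log2 fold change was 1.26 ± 0.29 (SE, edgeR adjusted p = 0.00667). SI1 was not apart for this gene, and as mean log2 CPM the difference was 1.25 among mitochondria-rich and 1.32 among mitochondria-poor libraries. Scaled by library size alone, it fell to 0.55 with an edgeR adjusted p of 0.128. That scaling moves the median of all genes from -0.09 to -0.82, and relative to this median Rb1 was 1.35 higher with TMM and 1.37 higher with library size alone. Exons of Rcbtb2 and Lpar6 on the opposite strand overlap 8.11% and 6.78% of its exon bases.

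Myc stood at 2.63, 26.8, 28.6 and 27.1 CPM in SI1 to SI4 and at 29.5, 20.1, 49.99 and 54.3 CPM in COL1 to COL4. SI2 to SI4 lay close together, SI1 (58 counts) was at 9.55% of their mean, and the COL libraries spread 2.70-fold. The log2 fold change was -0.86 ± 0.59 (SE, edgeR adjusted p = 0.307), and without SI1 it was -0.47 with 0.409. In mean log2 CPM the difference was 0.19 among mitochondria-rich and -2.61 among mitochondria-poor libraries, which include SI1. No exon of another annotated gene overlaps Myc.

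**Figure D2:**
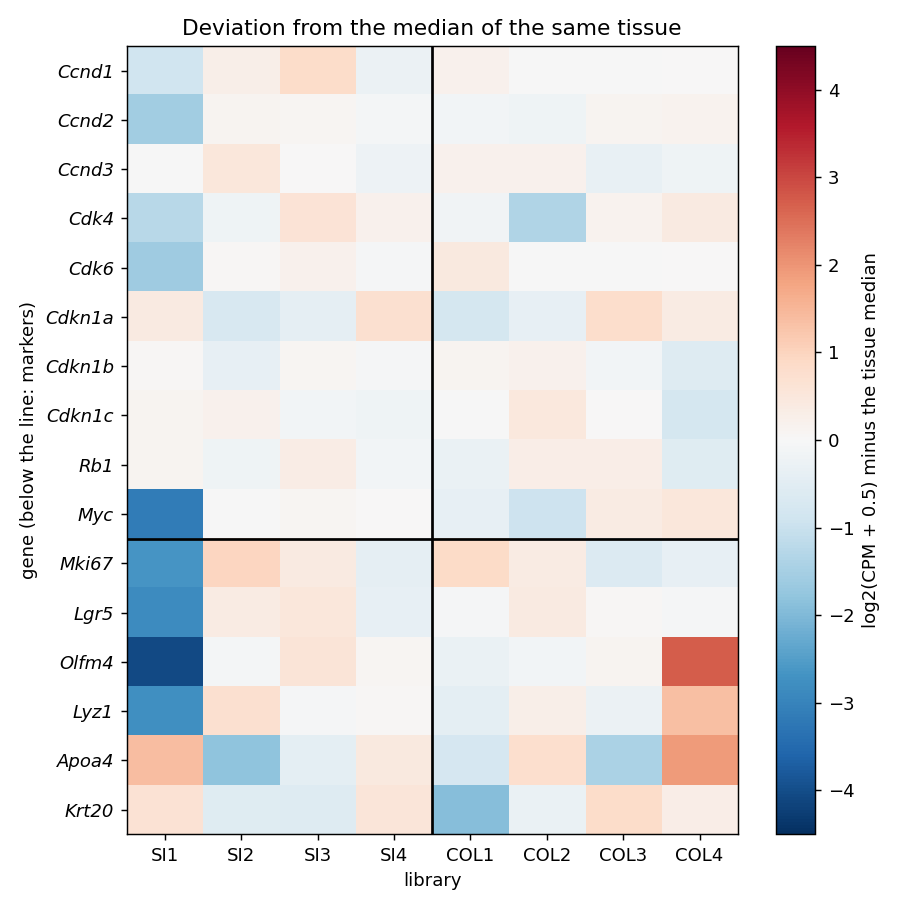
Deviation of log2(CPM + 0.5) from the median of the same tissue, for the 10 genes (above the line) and 6 markers (below it) in each library. SI1 is blue (low) for Ccnd1, Ccnd2, Cdk4, Cdk6, Myc, Mki67, Lgr5, Olfm4 and Lyz1 and not for Ccnd3, the CDK inhibitors or Rb1, and Cdkn1a and Krt20 are red (high) in SI1, SI4, COL3 and COL4.

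**Figure D3:**
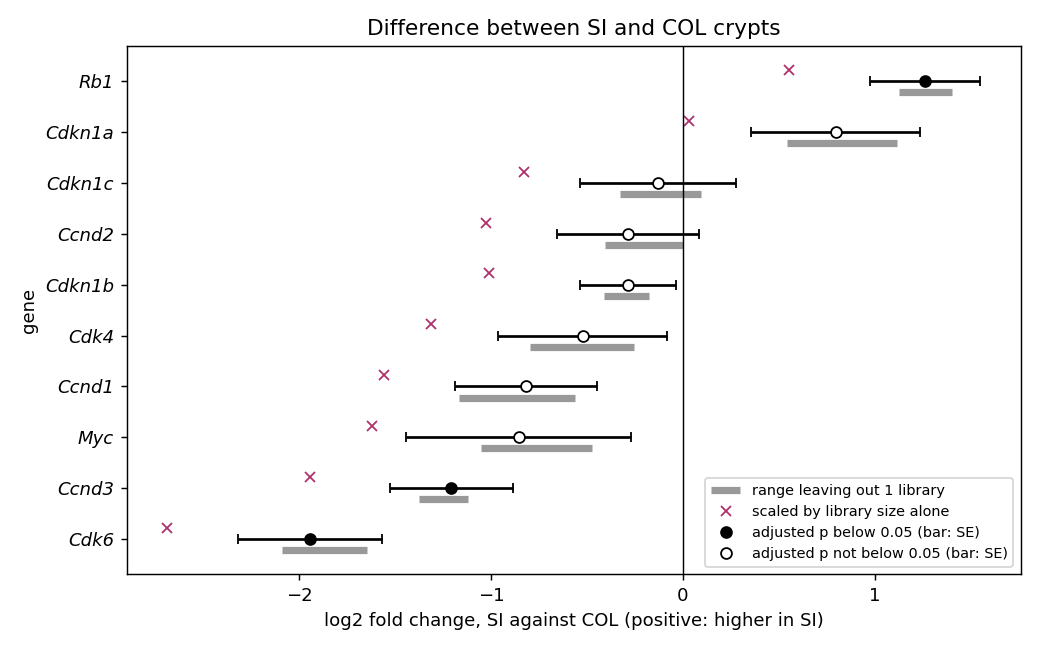
Log2 fold change of SI against COL for each gene with its SE (n = 4 a tissue), the range when each library is left out in turn, and the value when scaled by library size alone. Cdk6 and Ccnd3 lie left of 0 and Rb1 right of 0 in every setting drawn, and the crosses lie to the left because that scaling shifts all genes.

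The genes lie on several chromosomes, given here in GRCm38 with GENCODE vM21. Each value above rests on the submitters' count for the whole gene, and the exons they counted over are not given. On the plus strand are Ccnd3 (chr17:47505051-47599691), Cdk4 (chr10:127063534-127067920), Cdk6 (chr5:3341485-3531008), Cdkn1a (chr17:29090976-29100727), Cdkn1b (chr6:134920401-134925513) and Myc (chr15:61985391-61990374). On the minus strand are Ccnd1 (chr7:144929931-144939925), Ccnd2 (chr6:127125162-127152193), Cdkn1c (chr7:143458339-143461050) and Rb1 (chr14:73183673-73325822).

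Levels of different genes can be set side by side only per length, so CPM was divided by the kilobases of exon in GENCODE vM21. Bases shared with a gene on the opposite strand (23.4% in Ccnd1, 19.7% in Cdk4, 30.7% in Cdkn1c) were kept in these lengths. How such bases were counted is not known, which limits these levels and the shares below. On this scale (CPM per kilobase, mean ± SD, n = 4) the order in SI was Cdkn1a (77.9 ± 35.7), Cdk4 (19.4 ± 9.18), Ccnd2 (16.7 ± 6.96), Myc (7.84 ± 4.59), Cdkn1b (4.90 ± 0.67), Rb1 (4.30 ± 0.73), Ccnd1 (1.97 ± 1.03), Cdkn1c (1.75 ± 0.26), Cdk6 (1.31 ± 0.57) and Ccnd3 (0.48 ± 0.12). Of neighbours in this order, only Cdkn1a over Cdk4 and Rb1 over Ccnd1 had library ranges that did not overlap. The order in COL was Cdkn1a (44.9 ± 21.5), Cdk4 (27.9 ± 12.1), Ccnd2 (20.4 ± 2.44), Myc (14.2 ± 6.02), Cdkn1b (5.99 ± 1.31), Cdk6 (5.02 ± 0.85), Ccnd1 (3.46 ± 0.28), Cdkn1c (1.92 ± 0.71), Rb1 (1.80 ± 0.53) and Ccnd3 (1.11 ± 0.21). Here Myc over Cdkn1b, Cdk6 over Ccnd1 and Ccnd1 over Cdkn1c were the neighbours without overlap. The first 5 genes stood in the same order in both tissues, and Rb1 moved from the 6th place in SI to the 9th in COL as Cdk6 moved from the 9th to the 6th.

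Within a library, the share of a paralog in its family does not depend on the scaling between libraries, and these shares are given as a description. Cdk6 made up 5.43%, 8.35%, 5.47% and 6.10% of the summed Cdk4 and Cdk6 level per kilobase in SI1 to SI4 and 19.1%, 28.3%, 11.9% and 10.6% in COL1 to COL4. The SI shares (6.34% ± 1.38, SD, n = 4) all lay below the COL shares (17.5% ± 8.13), and SI1 was not apart from the other SI libraries on this measure. With the length of the longest transcript in place of the exon union, the mean shares were 4.94% and 14.1%. Ccnd2 made up 82.9% to 90.8% of the D-type cyclins in SI and 78.4% to 84.3% in COL, and its share was higher in SI in 4 of 4 mice although the ranges overlapped. Ccnd1 made up 7.34% to 13.4% in SI and 12.4% to 16.2% in COL. For Ccnd3 the share was 1.85% to 5.53% in SI and 3.33% to 5.69% in COL. These ranges overlapped, and the Ccnd3 share was lower in SI in 3 of 4 mice, with SI1 at 5.53% and COL1 at 5.37%. Cdkn1a made up 87.8% to 94.9% of the Cip/Kip level in SI and 73.2% to 91.0% in COL, where the mitochondria-rich COL1 and COL2 held 73.2% and 76.1%.

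**Figure D4:**
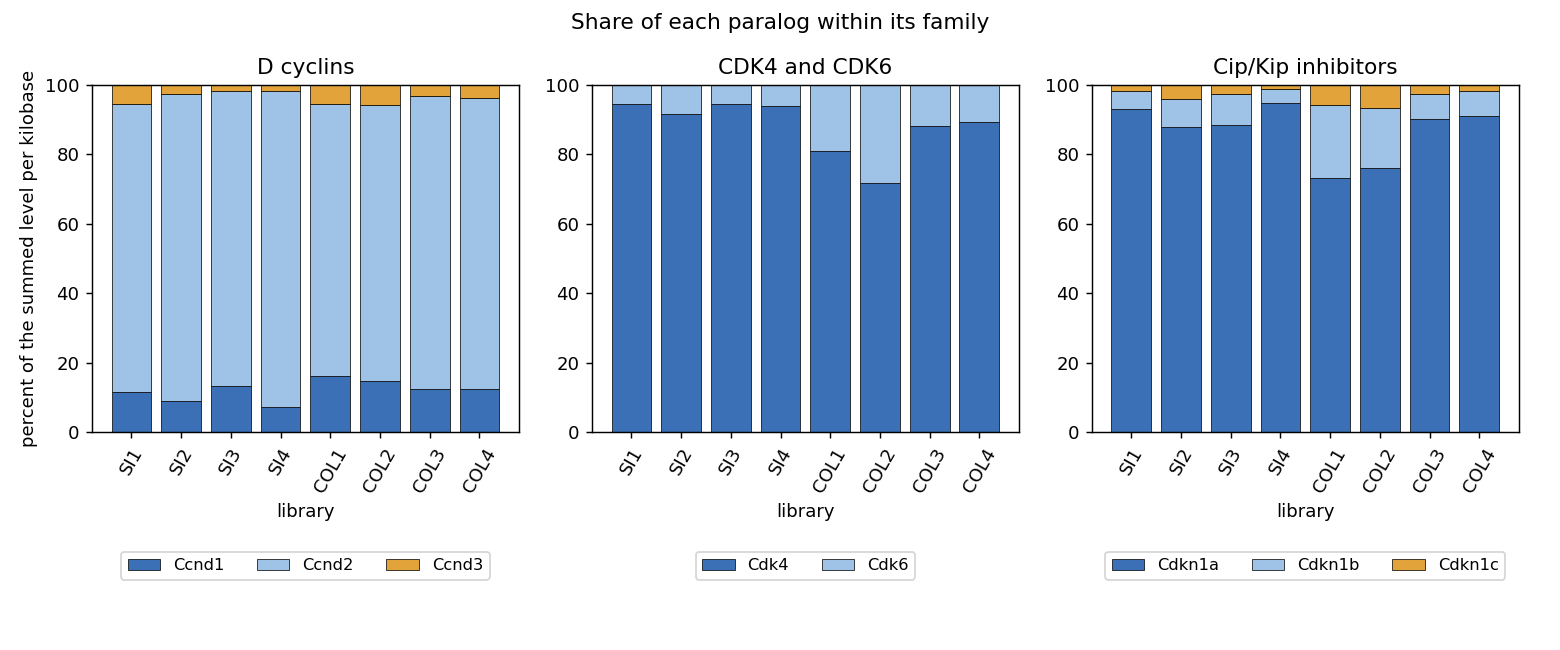
Share (percent) of each paralog in the summed level per kilobase of exon of its family, 1 bar a library. Ccnd2, Cdk4 and Cdkn1a make up most of their family in all 8 libraries, and the Cdk6 segment is larger in every COL library (10.6% to 28.3%) than in any SI library (5.43% to 8.35%).

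The genes whose log2 CPM over the 8 libraries was most like that of Cdk6 were Fgfr4, a growth factor receptor (Pearson r = 0.999), Gm7536, a gene model (0.993), and Abcc1, a drug efflux transporter (0.992). These are descriptions over 8 libraries, 4 of SI and 4 of COL, of unlike depth. Fgfr4, Gm7536 and Abcc1 were, like Cdk6, lower in SI (edgeR adjusted p = 0.00217, 0.0244 and 0.00135), and this difference between the tissues enters each correlation. Fgfr4 stood at 0.136, 1.45, 1.83 and 1.37 CPM in SI1 to SI4 and at 13.7, 9.26, 9.74 and 9.88 CPM in COL1 to COL4. Like Cdk6, it was lowest in SI1 and highest in COL1. Its SI1 value rests on few counts, as 1 count in SI1 was 0.0453 CPM.

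The rest of the pathway was followed in 10 lists of 106 genes, of which 103 were tested and 23 passed the threshold (14 higher in SI and 9 higher in COL), 22.3% against 28.4% of all genes. Of the INK4 inhibitors, which bind CDK4 and CDK6, Cdkn2b was higher in SI (27.1 ± 12.3 against 12.02 ± 4.10 CPM, log2 fold change 1.18 ± 0.36, edgeR adjusted p = 0.0315), Cdkn2c and Cdkn2d did not pass, and Cdkn2a had 0 counts in all 8 libraries. Neither of the other pocket proteins passed, with log2 fold changes of 0.54 for Rbl1 and 0.71 for Rbl2 (edgeR adjusted p = 0.147 and 0.0849). Among 10 E2F and DP factors, 1 passed, the activator E2f3, which was higher in SI (13.5 ± 5.85 against 5.74 ± 0.83 CPM, log2 fold change 1.24 ± 0.35, edgeR adjusted p = 0.0219). Cdkn2b and E2f3 were both highest in SI1 (45.3 and 20.2 CPM). Without SI1 neither passed (edgeR adjusted p = 0.0882 and 0.0607).

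Of 8 genes of the CDK2 cyclins and the activating kinase and phosphatase, 2 were higher in SI and none was higher in COL. Ccne2, which encodes a cyclin E, averaged 11.7 ± 4.07 CPM (SD) in SI against 4.10 ± 0.23 CPM in COL (log2 fold change 1.51 ± 0.32, edgeR adjusted p = 0.00451), and Cdc25a, a phosphatase that activates CDK2, at 51.5 ± 7.73 and 24.1 ± 5.92 CPM (1.10 ± 0.26, 0.00767). Of 8 genes that degrade D cyclins, p27 and Myc, 2 were higher in COL, as were 12.9% of all genes tested. They were Fbxo31, an F-box protein known to target cyclin D1 (2.10 ± 0.39 CPM in SI against 9.82 ± 5.58 CPM in COL, log2 fold change -2.22 ± 0.44, edgeR adjusted p = 0.00288), and Cks1b, a cofactor of SKP2 (5.91 ± 3.11 against 16.4 ± 5.93 CPM, -1.48 ± 0.50, 0.0473). With the donor mouse as a replicate block, Cks1b had an edgeR adjusted p of 0.0648.

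The Myc network, the factors that share MAX or MLX as a partner, had 7 of 12 genes past the threshold. Of all genes tested, 28.4% passed in either direction. Higher in SI were Mlxipl, a glucose-sensing factor (93.4 ± 37.3 against 15.5 ± 7.02 CPM, log2 fold change 2.59 ± 0.38, edgeR adjusted p = 0.000463), Mxi1, a MAX partner that opposes Myc (53.03 ± 11.97 against 14.6 ± 3.85 CPM, 1.86 ± 0.28, 0.000496), and Mlx, the partner of Mlxipl (125 ± 25.9 against 46.9 ± 20.5 CPM, 1.42 ± 0.35, 0.0103). Max and Mxd1, named here because their values were seen, were also higher in SI (2.21 and 1.60, edgeR adjusted p = 0.0175 and 0.0242). Higher in COL were Mxd4, another MAX partner that opposes Myc (27.5 ± 7.78 against 74.4 ± 20.1 CPM, -1.44 ± 0.30, 0.00381), and Mlxip (22.7 ± 8.02 against 47.6 ± 14.0 CPM, -1.07 ± 0.32, 0.0250). The median over the list was -0.05.

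Of 15 Myc target genes, 2 were higher in COL, none was higher in SI, and the median was -0.53. Of all genes tested, 12.9% were higher in COL and 15.5% in SI. Cad, an enzyme of pyrimidine synthesis, averaged 5.40 ± 2.42 CPM in SI against 17.2 ± 4.51 CPM in COL (log2 fold change -1.67 ± 0.39, edgeR adjusted p = 0.00808), and Srm, spermidine synthase, at 1.83 ± 0.95 and 7.28 ± 4.24 CPM (-1.995 ± 0.53, 0.0151). Over 17 E2F target genes of DNA replication the median log2 fold change was -0.34, and none was higher in COL by the test. The 11 mitosis genes all had negative fold changes with a median of -1.10, where 53.4% of all genes tested were negative. Of these 11 genes 1 passed, the mitotic kinase Plk1 (17.1 ± 9.26 against 68.7 ± 15.9 CPM, -2.004 ± 0.44, edgeR adjusted p = 0.00576). Without SI1 the medians were -0.30 for the Myc targets, -0.05 for the E2F targets and -0.76 for the mitosis genes, beside -0.04 for all genes.

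Of 17 tested p53 target genes other than Cdkn1a, 6 passed, 4 of them higher in SI and 2 in COL, and the median was -0.05. The share of all tested genes that passed was 28.4%. Sesn1, a stress-induced sestrin, had the largest difference (184 ± 23.0 against 9.70 ± 3.27 CPM, log2 fold change 4.24 ± 0.33, edgeR adjusted p = 1.2e-05), followed by the death receptor gene Fas (79.2 ± 41.9 against 8.33 ± 5.77 CPM, 3.24 ± 0.57, 0.00136) and Pmaip1, which encodes NOXA (63.6 ± 12.9 against 11.3 ± 10.6 CPM, 2.503 ± 0.53, 0.00469). Mdm2, named here because its value was seen, was higher in SI by 1.04 on the log2 scale (edgeR adjusted p = 0.0173). Higher in COL were Trp53inp1 (5.67 ± 1.09 against 21.6 ± 11.8 CPM, -1.93 ± 0.38, 0.00277) and Plk2 (6.16 ± 2.95 against 18.1 ± 4.41 CPM, -1.55 ± 0.36, 0.00759). Members of this list thus passed in both directions.

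**Figure D5:**
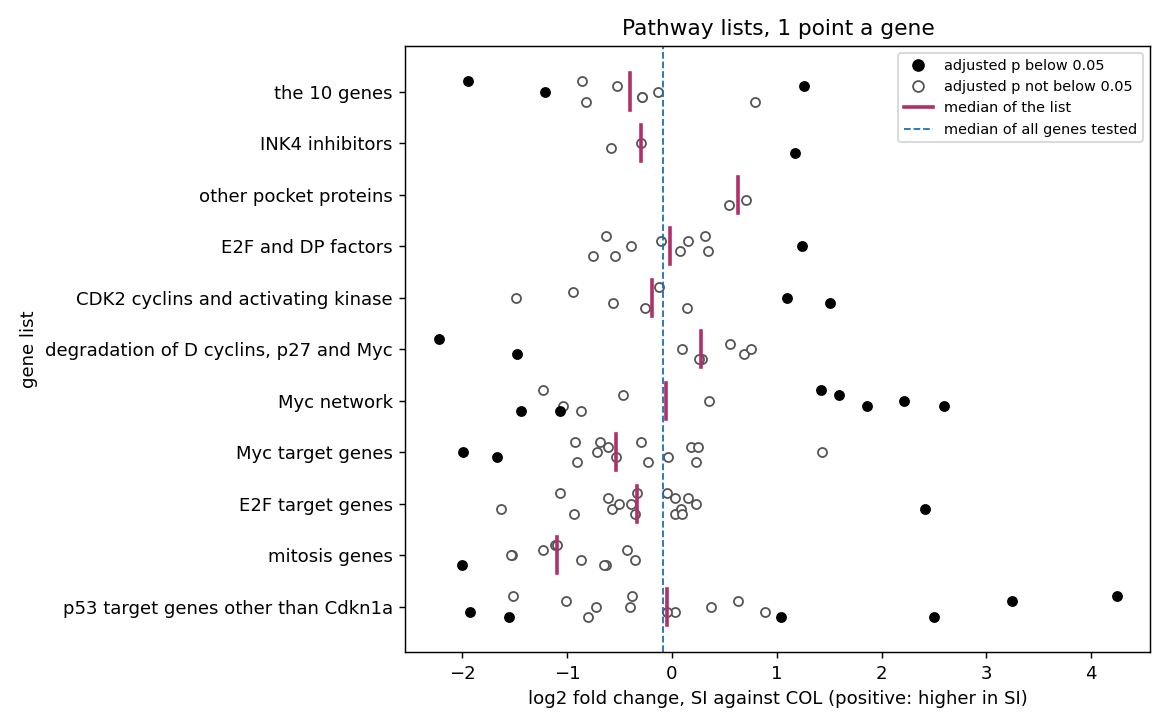
Log2 fold change of SI against COL for each tested gene of the 10 described genes and the 10 pathway lists, filled where the edgeR adjusted p is below 0.05. The dashed line is the median of all genes tested (-0.09), and the mitosis genes lie to its left with a median of -1.10.

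Whether the difference between SI and COL depended on sex was tested as an interaction, with 2 libraries for each tissue and sex. By edgeR, 0 of 14491 genes passed the threshold (0%), and 761 had an unadjusted p below 0.05. Adjusted p-values of the 10 genes were 0.909 to 0.984. In that fit the log2 fold change of Cdk6 was -2.51 in female and -1.47 in male mice, that of Ccnd3 -1.49 and -0.96, and that of Rb1 1.63 and 0.98. By mouse, the Cdk6 difference in log2 CPM was -3.73 in replicate 1, which includes SI1, and -1.68 in replicate 4, the other female. It was -1.54 and -1.39 in the male replicates 2 and 3. The lowest unadjusted p of the 10 genes was that of Ccnd1, with a log2 fold change of -1.61 in female and -0.27 in male mice, an interaction of 1.34 ± 0.60 (SE, unadjusted p = 0.0503, edgeR adjusted p = 0.909). Cdkn1a came next and differed by 1.49 in female and -0.09 in male mice, an interaction of -1.57 ± 0.80 (SE, unadjusted p = 0.0789, edgeR adjusted p = 0.909). SI1 and SI4 are the female SI libraries and also the mitochondria-poor ones, so that in SI sex and this share cannot be told apart.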

How the data were processed

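Counts of 8 RNA-Seq libraries, 1 of SI crypts and 1 of COL crypts from each of 4 mice, were analysed. The authors trimmed reads with Trimmomatic 0.36 and aligned and counted them with STAR 2.5.2b on mm10 (versions from the submitters' processing notes), and they deposited raw counts per Ensembl gene. The annotation release and the strand setting of the counting are not given in the sources used here. GENCODE vM21 (GRCm38) gave the symbols and coordinates and matched 45143 of 45706 identifiers, and promoter sequences from RefSeq, which gave 7 windows for 5 of the 10 genes.

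The 10 genes and the lists were chosen with earlier results of these data known. In R 4.3.3, edgeR 4.0.16 (quasi-likelihood test, TMM, filterByExpr by tissue, 14491 genes kept, no term for the mouse) was the main test; p-values were adjusted by Benjamini-Hochberg over all genes, with a threshold of 0.05. CPM are counts over the TMM-scaled sum of the genes kept. Of each list, up to 3 genes a direction with the lowest adjusted p among those past the threshold are named, with any others said to be named after their values were seen. One result that this rule selects is not reported here. Alternatives were DESeq2 1.42.0, limma 3.58.1 (voom), another scaling or filter, the mitochondrial share as covariate, and each library left out. The fits were also tested on simulated counts, drawn without pairing by mouse, a split in mitochondrial share or a library set apart. No result above rests on that test.

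SI and COL libraries are paired by the donor mouse in the labels, and the donor mouse as a replicate block was an alternative. The deviations of the libraries of a mouse from their tissue means had correlations of -0.24, 0.39, -0.08 and 0.33 in replicates 1 to 4. Within each tissue, the libraries came from separate mice. Total counts were 15969428 to 32908060, and 1 count was 0.0209 to 0.0622 CPM.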

Additional observations from a re-analysis of the deposited data

Results flagged for a closer look

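In 76 groups of 4 libraries (38 levels or shares in each tissue), 5 had 1 library whose gap to the next was a larger part of their range than Dixon's critical value allows, and chance flags about 1 in 20 groups. Myc was at 2.63 CPM in SI1, against 26.8 to 28.6 CPM in the other SI libraries. Cdk6 was at 88.2 CPM in COL1, against 63.8 to 65.4 CPM in the other COL libraries, and Ccnd1 at 18.2 CPM in COL1, against 15.5 to 15.9 CPM. E2f3 was at 6.96 CPM in COL2, against 5.16 to 5.42 CPM, and Plk2 at 10.6 CPM in SI4, against 4.61 to 4.77 CPM in the other SI libraries.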

How the results depend on the processing

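Cdk6 passed the threshold in 17 of 17 alternatives, Rb1 in 16 and Ccnd3 in 15, and the exceptions are given above. Of the 10 genes, 2 to 4 passed with a library left out, 4 with library size alone (Ccnd1, Ccnd3, Cdk6 and Cdkn1b), 4 with limma-voom (with Ccnd1 at an adjusted p of 0.0499) and 3 in each of the others. Cdkn1c, which did not pass in any setting, changed sign to 0.0395 with limma-voom and to 0.0291 with the mitochondrial share as covariate, and ran from -0.33 to 0.096 (without COL2) with a library left out. With the donor mouse as a replicate block, 4072 genes passed in place of 4116, and in the pairing the same 3 of the 10 genes did (Cdk6 adjusted p = 0.00667, Rb1 0.0102, Ccnd3 0.0276). That block ended no call of the genes named other than Cks1b. The count of list genes past the threshold was 23, rose to 48 with library size alone and to 35 with no filter, and was 18 to 31 with a library left out. The count over all genes was 3167 to 5903 across alternatives and 3167 to 4480 with a library left out. Tissue by sex gave 0 genes with either filter. By edgeR, calls were lost without SI1 for Cdkn2b (adjusted p = 0.0882), E2f3 (0.0607), Mlxip (0.0713) and Mxd1 (0.0560), without SI2 for Cks1b (0.0505), without SI3 for Cks1b (0.0658) and Mlxip (0.0689), and without SI4 for E2f3 (0.0823), Cks1b (0.0759), Mlxip (0.0555), Max (0.0527), Mxd1 (0.0641) and Mdm2 (0.0724). Without COL1 they were lost for Cdkn2b (0.0851), E2f3 (0.0592), Cks1b (0.114), Srm (0.0696) and Max (0.0532), without COL3 for Cdkn2b (0.0522), E2f3 (0.0557), Cks1b (0.0776) and Mdm2 (0.0509), and without COL4 for Cdkn2b (0.0782), E2f3 (0.0518), Cks1b (0.112), Mxd1 (0.0642) and Mdm2 (0.0501). Library size alone also ended the calls of Cdkn2b, E2f3, Ccne2, Cdc25a, Mlx, Max, Mxd1 and Mdm2, and the mitochondrial covariate that of Cks1b (0.0508). The low counts of Ccnd3 and Cdkn1c add counting error to the spread between mice.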
